A study of Homo sapiens with 6 samples.

Results

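The metallothioneins are small cysteine-rich proteins that bind zinc, copper and cadmium. Their transcripts were followed in HepG2 cells together with those of the zinc sensor and the zinc exporter of the same response. The 10 genes were taken by name, with no threshold on a measured value: MT1A, MT1E, MT1F, MT1G, MT1H, MT1M, MT1X, MT2A, MTF1 and SLC30A1. All 10 were found among the 33791 genes to which the deposited transcripts could be matched, and all 10 were among the 12302 genes tested. RNA came from HepG2, an established human liver cancer line, in 3 libraries from cells given 20 µM atractylon, a sesquiterpenoid of Atractylodes rhizomes, and 3 libraries from HepG2 cells with no treatment. The duration of exposure is not given in the sources used here, and the labels name no vehicle for the controls. The study was set up to find long non-coding RNAs that differ with atractylon. The labels do not say whether the replicates came from separate cultures. All p-values therefore reflect the spread between these 6 libraries alone, and that spread may be technical.

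Liver cells hold much of the zinc and copper bound to metallothionein, and HepG2 cells are often used to follow metallothionein induction. When free zinc rises, the zinc-finger transcription factor MTF1 binds metal response elements in the promoters of the metallothionein genes and of SLC30A1, which encodes the zinc exporter of the plasma membrane also called ZnT1. The transcripts of these targets are for that reason commonly read as a gauge of zinc and other metals available in the cell, and metallothionein transcripts also rise with glucocorticoids and oxidative stress.

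The promoters are shown because they hold the element through which MTF1 acts and because they differ in how many copies they carry. The searched letters were TGCACNC and TGCGCNC, a core of the metal response element, on both strands, in the window from 250 bases before to 50 bases after the RefSeq start of each gene (GRCh38.p14). RefSeq promoters were matched for 5 of the 10 genes. Each promoter is given 5′ to 3′ on the strand of its gene, with matches in capitals; a match on the opposite strand reads GNGTGCA or GNGCGCA.
MT2A (chr16:56608334-56608633, plus strand): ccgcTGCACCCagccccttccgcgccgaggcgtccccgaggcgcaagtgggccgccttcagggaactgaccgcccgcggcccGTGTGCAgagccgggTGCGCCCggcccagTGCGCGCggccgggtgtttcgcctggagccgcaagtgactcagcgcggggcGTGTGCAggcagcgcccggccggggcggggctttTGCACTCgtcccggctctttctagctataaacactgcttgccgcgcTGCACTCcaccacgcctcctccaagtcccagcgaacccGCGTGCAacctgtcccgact
MT1X (chr16:56682220-56682519, plus strand): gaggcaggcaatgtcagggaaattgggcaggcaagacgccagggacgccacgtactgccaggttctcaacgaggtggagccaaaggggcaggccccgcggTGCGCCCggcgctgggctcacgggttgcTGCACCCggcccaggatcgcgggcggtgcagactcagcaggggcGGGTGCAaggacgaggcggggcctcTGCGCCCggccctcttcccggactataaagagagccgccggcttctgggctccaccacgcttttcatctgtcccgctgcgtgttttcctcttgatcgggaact
MT1H (chr16:56669564-56669863, plus strand): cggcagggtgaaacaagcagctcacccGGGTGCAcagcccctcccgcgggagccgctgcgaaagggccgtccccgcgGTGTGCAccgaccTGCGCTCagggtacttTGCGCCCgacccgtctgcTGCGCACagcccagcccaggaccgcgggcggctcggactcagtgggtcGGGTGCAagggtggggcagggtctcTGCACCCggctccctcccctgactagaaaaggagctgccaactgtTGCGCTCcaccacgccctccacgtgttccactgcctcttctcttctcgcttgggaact
SLC30A1 (chr1:211579112-211579411, minus strand): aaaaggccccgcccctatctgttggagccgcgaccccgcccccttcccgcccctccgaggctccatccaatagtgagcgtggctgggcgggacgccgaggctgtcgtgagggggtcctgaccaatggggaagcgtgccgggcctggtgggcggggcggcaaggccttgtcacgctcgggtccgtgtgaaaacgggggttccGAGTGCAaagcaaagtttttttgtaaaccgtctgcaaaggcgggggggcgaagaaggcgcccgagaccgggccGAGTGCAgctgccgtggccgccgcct

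The MT2A promoter held 8 matches, the MT1H promoter 8, the MT1X promoter 4 and the SLC30A1 promoter 2, and no matches within a promoter overlapped. The promoter of MTF1 itself (chr1:37859543-37859842, minus strand) held 0 matches. Among all 35116 RefSeq promoters of the same length, 29.6% held at least 1 match, 8.6% held at least 2, 0.601% held at least 4 and 0.0199%, or 7 promoters, held at least 8. A match is a string of letters and not a measured binding site. MT2A and MT1H, each with 8 matches, gave the most and the fewest counts of the 8 metallothionein genes in these cells.

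The 8 metallothionein genes are near-identical copies, which bears on every value that follows. Over their 186 aligned coding bases, the 28 pairs ranged from 88.7% identity, between MT1F and MT1X, to 95.2%, between MT1G and MT2A. MT1G was compared by its second transcript, MT1G-202, which held 21.6% of its counts. Its main transcript, MT1G-201, has 189 coding bases and so could not be compared base by base. The longest coding run shared exactly by the 5 abundant genes MT2A, MT1E, MT1G, MT1F and MT1X was 32 bases, starting at coding base 61 of MT2A (GENCODE 29 transcripts), and it is shown because a read lying wholly inside it could come from any of them.
Shared run: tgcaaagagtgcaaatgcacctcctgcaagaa

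The part of each full transcript shared with another metallothionein gene was small. The share of 50-base windows found in another metallothionein gene ran from 2.2% in MT2A to 19.9% in MT1G and 20.4% in MT1H. Only the metallothionein genes and pseudogenes named here were searched, not the rest of the annotation. At 100 bases the share was 0 in all but MT1H, where it was 3.4%, with MT1HL1 as the other copy. The summed expected count of a metallothionein gene was a whole number, within 0.03, in 47 of 48 values (97.92%), with 1 value of MT1F off by 0.27. Over all genes tested, 75.8% of the sums were whole. A whole sum is what counts have when no read is divided between genes; whether a read was placed in the right copy cannot be read from the table.

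None of the 10 genes differed between atractylon and control at an adjusted p below 0.05 (quasi-likelihood test of edgeR, adjusted by Benjamini-Hochberg over the 12302 genes tested). The background was the same: 0 genes (0%) were called higher and 0 (0%) lower. At an unadjusted p below 0.05, edgeR gave 0 of the 10 genes, against 196 of all tested genes (1.59%). DESeq2 also gave 0 of the 10 (0.829% of all genes), as did limma on log2(FPKM + 0.5) (3.26% of all genes). Fitted changes were positive for 5 genes and negative for 5. Their median log2 fold change was -0.08, against 0.01 over all genes tested. The adjusted p was 0.9999 for each of the 10 genes. For 9 of them the 95% interval stayed inside 2-fold on both sides, as it did for 9996 of the tested genes; the exception was MT1H, which had 0 to 2 counts per library. In bulk RNA, fewer cells with a transcript and less of it per cell cannot be told apart.

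**Figure D1:**
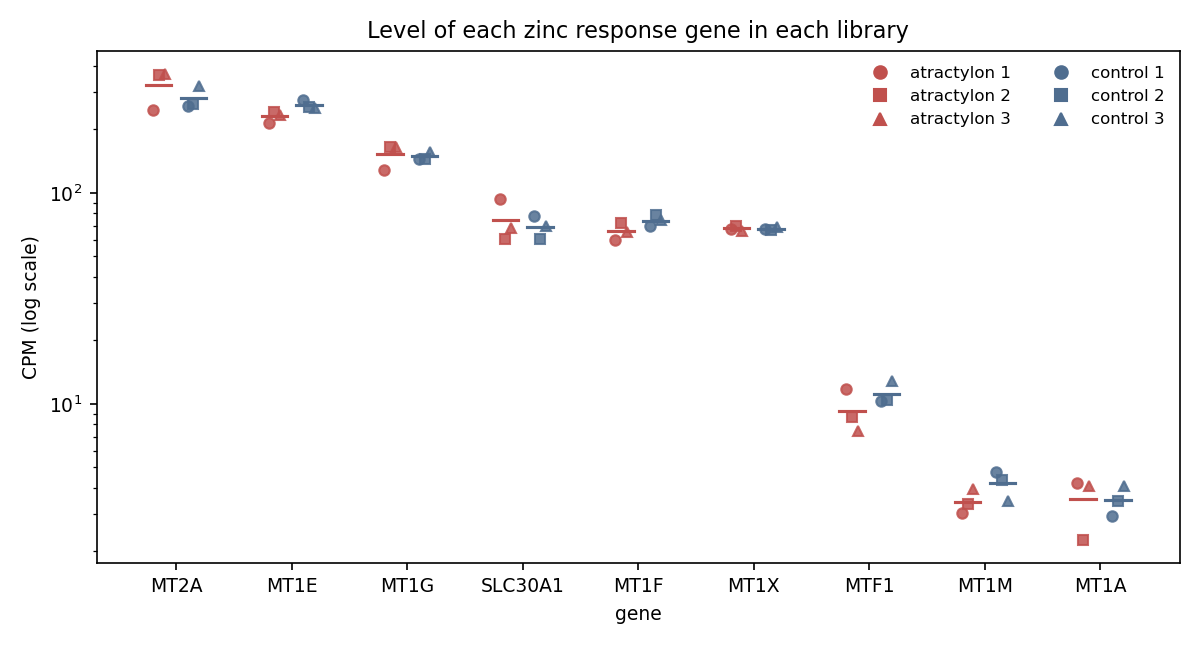
Level of 9 of the genes in each library, as CPM (counts scaled to the effective library size) on a log axis, with 1 point per library and the mean of each group of 3 libraries; MT1H is left out for its 0 to 2 counts per library. The groups overlap for 8 of the 9 genes, and the exception is MT1E, at 215 to 242 CPM with atractylon and 254 to 275 CPM in controls.

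The only gene of the 10 whose groups did not overlap was MT1E, which was lower with atractylon. Over all tested genes, 5.72% had groups that did not overlap, 2.71% higher and 3.02% lower. A count of 1 in 10 is thus near the background. It changed when libraries were left out, as did the background: it was 4 of 10 against 31.9% of all genes without atractylon replicate 1, and 3 of 10 against 11.4% without atractylon replicate 2. It was 2 of 10 without atractylon replicate 3 (10.4% of all genes), control replicate 1 (12% of all genes) or control replicate 3 (14.7% of all genes), and 1 of 10 without control replicate 2 (12% of all genes). It was 5 of 10 without replicate 1 of both groups (42.5% of all genes), 2 of 10 by FPKM in place of CPM (7.3% of all genes), 2 of 10 with the GC trend removed (7.74% of all genes) and 3 of 10 with GC and length trends removed (8.71% of all genes).

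The summed level of the 8 metallothionein genes is the quantity least touched by reads placed in the wrong copy. It was 727, 919 and 905 CPM in atractylon replicates 1, 2 and 3, and 823, 817 and 882 CPM in control replicates 1, 2 and 3. Atractylon replicate 1 was the lowest of the 6 libraries and atractylon replicates 2 and 3 were the highest, so the treated libraries enclosed all 3 controls. The means were 850.2 ± 107 CPM with atractylon and 841 ± 35.7 CPM in controls (SD, n = 3 each), a ratio of 1.01. As a share of all gene counts, metallothionein transcripts took 0.0745% to 0.0889% of the library. The sums rest on 4486 to 7134 counts per library.

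**Figure D2:**
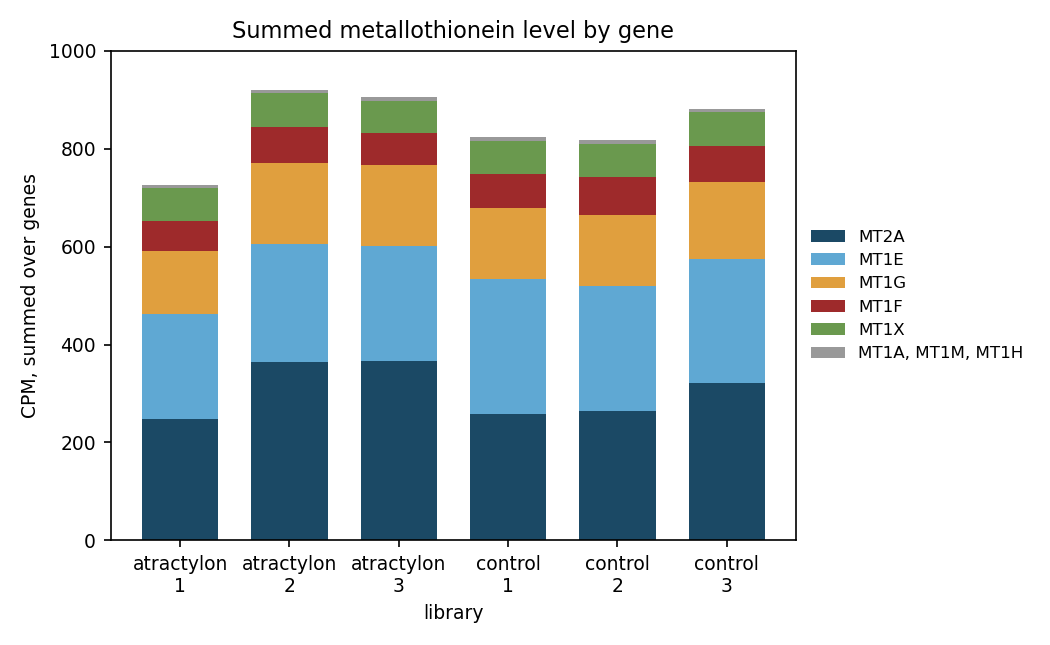
Summed level of the 8 metallothionein genes in each library, in CPM, with each bar stacked by gene (MT1A, MT1M and MT1H drawn together). The sum runs from 727 CPM in atractylon replicate 1 to 919 CPM in atractylon replicate 2 with the controls between them, and MT2A and MT1E make up most of it in every library.

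Within the sum, MT2A and MT1E together held 63.5% to 66.3% of the counts, and MT2A, MT1E, MT1G, MT1F and MT1X together held 99.0% to 99.4%. In order of replicate number, the share of MT2A was 34.1%, 39.5% and 40.4% with atractylon and 31.4%, 32.4% and 36.4% in controls. The share of MT1E was 29.6%, 26.4% and 25.9% with atractylon and 33.5%, 31.1% and 28.8% in controls. The shares of MT2A leaned up and those of MT1E leaned down with atractylon, and for both genes the groups overlapped, since control replicate 3 lay among the treated libraries. The share of MT1G stayed between 17.5% and 18.3% in all 6 libraries, the steadiest of the 3 largest shares.

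MT2A, which encodes the main MT2 isoform and gave the most counts of the family, had 1869, 2395 and 2416 counts with atractylon and 1408, 1759 and 2594 in controls. Scaled for library size this was 247, 363 and 366 CPM with atractylon and 258, 265 and 321 CPM in controls. The treated libraries split: replicate 1 was below every control and replicates 2 and 3 were above every control. The fold change was 1.16 (95% interval 0.913 to 1.46), a log2 fold change of 0.21 (SE 0.15), with an unadjusted p of 0.203 and an adjusted p of 0.9999 by edgeR. Without atractylon replicate 1 the log2 fold change of MT2A was 0.37, with an unadjusted p of 0.00383 and an adjusted p of 0.357 (0.357 to 1 over all alternatives); 10.7% of all tested genes had an unadjusted p below 0.05 in that fit. It was 0.12 without atractylon replicate 2, 0.11 without atractylon replicate 3 and 0.31 without control replicate 3. With the GC trend of each library removed it was 0.12, and the other fits lay between 0.10 and 0.32.

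MT1E, the most abundant MT1 gene by counts, was at 215, 242 and 235 CPM with atractylon and at 275, 254 and 254 CPM in controls. Every treated library was below every control, by a narrow margin between atractylon replicate 2 and control replicates 2 and 3. The means were 231 ± 14.0 and 261 ± 12.5 CPM (SD, n = 3 each). The fold change was 0.884 (95% interval 0.762 to 1.02), a log2 fold change of -0.18 (SE 0.10), with an unadjusted p of 0.0942 by edgeR. MT1F leaned the same way, at 60.1, 72.1 and 65.3 CPM with atractylon and 69.4, 78.2 and 74.0 CPM in controls, but its groups overlapped. Its log2 fold change was -0.17 (SE 0.12), with an unadjusted p of 0.189 by edgeR. With the GC trend removed, MT1E was at a log2 fold change of -0.24 (unadjusted p 0.0121) and MT1F at -0.23 (unadjusted p 0.0172), both with an adjusted p of 0.9998 by edgeR (lowest over all alternatives 0.590 for MT1E and 0.673 for MT1F), where 2.53% of all genes had an unadjusted p below 0.05. Leaving out libraries moved both changes either way. MT1F was at -0.11 (unadjusted p 0.369 by edgeR) without atractylon replicate 1 and at -0.25 without atractylon replicate 2. MT1E was at -0.09 (unadjusted p 0.314 by edgeR) without replicate 1 of both groups and at -0.22 without atractylon replicate 2.

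MT1G, a metallothionein that liver cells express strongly, was at 129, 166 and 166 CPM with atractylon and 144, 146 and 157 CPM in controls. Like MT2A, it was lowest in atractylon replicate 1 and highest in atractylon replicates 2 and 3. Its log2 fold change was 0.04 (SE 0.12), with an unadjusted p of 0.744 by edgeR, and it ranged from -0.03 to 0.15 as single libraries were left out. MT1X, an isoform made in many tissues, was the steadiest gene of the 10. It was at 67.8, 69.8 and 65.9 CPM with atractylon and 67.5, 66.6 and 68.9 CPM in controls, and all 6 values lay within 4 CPM of each other. Its log2 fold change was 0.00 (SE 0.11, 95% interval -0.24 to 0.24).

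The remaining MT1 genes gave few counts. MT1M had 23, 22 and 26 counts with atractylon and 26, 29 and 28 in controls, or 3.44 ± 0.455 and 4.20 ± 0.671 CPM (SD, n = 3 each). Its groups overlapped once scaled for library size, and its log2 fold change was -0.28 (SE 0.29, unadjusted p 0.364 by edgeR), or -0.18 without control replicate 1 and -0.10 without replicate 1 of both groups. MT1A had 32, 15 and 27 counts with atractylon and 16, 23 and 33 in controls, and its highest and lowest CPM were both in treated libraries. Its log2 fold change was 0.01 (SE 0.34, 95% interval -0.73 to 0.75). As folds the interval ran from 0.601 to 1.69, so changes of MT1A within it cannot be told from none at this depth. MT1H had 1, 1 and 0 counts with atractylon and 2, 0 and 1 in controls, at or under the limit of 3 counts that a count of 0 allows, and no fold is given for it. It entered the test because a short transcript with 1 count passes an FPKM minimum of 0.5.

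**Figure D3:**
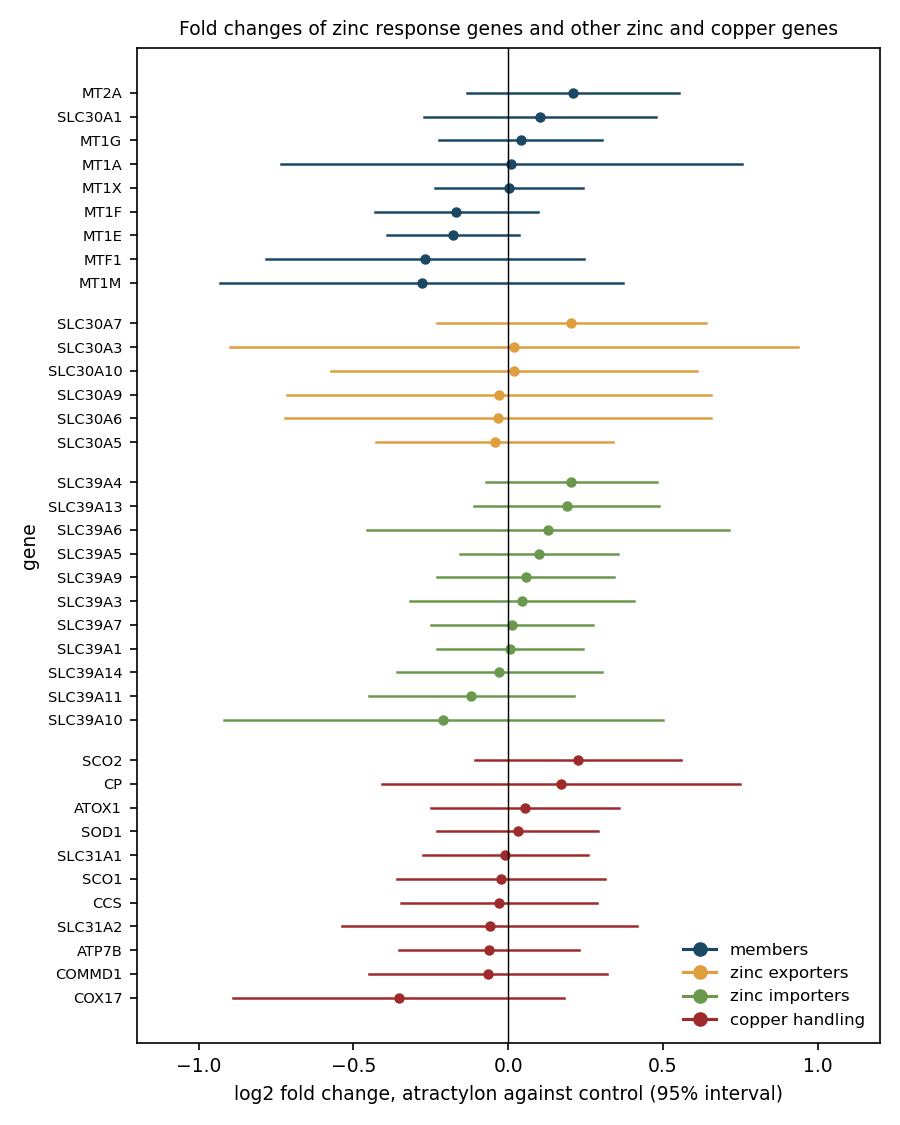
Log2 fold change (atractylon over control) with its 95% interval for 9 of the genes and for the tested genes of the zinc and copper lists; MT1H and MT1B, at a handful of counts each, are left out. Every interval shown crosses 0, and the highest of the 9 genes is MT2A at 0.21.

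Levels between genes can be compared only per length, and here the length decides the order. The deposited FPKM scales reads by library size and by a length shorter than the transcript. Counts and FPKM together implied 136.8 to 147.0 bases for MT1G-201, which has 405 bases. For MT2A-201, which has 786 bases, they implied 517.0 to 527.5. Levels per full transcript length were not computed. On the deposited scale the mean level over the 6 libraries was 962 ± 93.2 for MT1G, 528 ± 86.0 for MT2A, 522 ± 42.5 for MT1E, 314 (294 to 326) for MT1X and 154 ± 14.0 for MT1F (SD, n = 6, or the range for MT1X). MT2A and MT1E did not differ beyond their spread, with MT2A higher in 3 of the 6 libraries. MT1A was at an FPKM of 23.8 ± 5.26, SLC30A1 at 12.6 ± 2.45, MT1M at 6.14 ± 1.09, MTF1 at 2.27 ± 1.61 and MT1H at 0.875. The FPKM ranges of MT1A and SLC30A1 overlapped, as did those of MT1M and MTF1, though within each library the first of each pair was the higher. MT1A-201, of 396 bases, had an implied length of 130.1 to 138.1 bases in the libraries where it was computed. That of SLC30A1-201, of 5474 bases, was 5206.0 to 5216.0. The place of MT1A above SLC30A1 thus depends on the implied length and rests on 15 to 33 counts of MT1A per library. MTF1 exceeded MT1H in 5 of the 6 libraries.

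The most abundant MT2A transcript of GENCODE 29, MT2A-201, has 786 bases, of which 457 lie before the coding part, whereas MT1G-201 has 405 bases with 72 before the coding part. The RefSeq start of MT2A lies 385 bases into MT2A-201, and that of MT1X 46 bases into MT1X-201. The start of a shorter GENCODE transcript lies 306 bases into MT1E-201, 318 bases into MT1F-201 and 474 bases into MT1M-201. FPKM was rescaled to the length implied for transcripts within 5 bases of these shorter lengths. For MT2A-201, with 401 bases from the inner start, that implied length was 132.9 to 143.0 bases. FPKM rose by a mean ratio of 3.79 for MT2A-201 and 3.25 for MT1E-201, set by the implied and not the full lengths. The same counts then gave a mean FPKM of 1997 ± 365 for MT2A-201, 1623 ± 137 for MT1E-201, 557.5 ± 49.2 for MT1F-201 and 405 ± 17.1 for MT1X-201 (SD, n = 6). MT2A and MT1E were then each above MT1G, kept at its deposited value, in 6 of 6 libraries, the reverse of the deposited order. MT1M-201 rose from a mean of 6.14 to 36.7 ± 6.16 (SD, n = 6), on 22 to 29 counts per library. That is above the deposited means of MT1A (23.8) and SLC30A1 (12.6), also the reverse of the deposited order. Shorter GENCODE transcripts of MT1G start 31 and 44 bases into MT1G-201, and its level was not recomputed from those starts. The file gives no positions of reads along a transcript, so which start these cells used cannot be told from it.

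**Figure D4:**
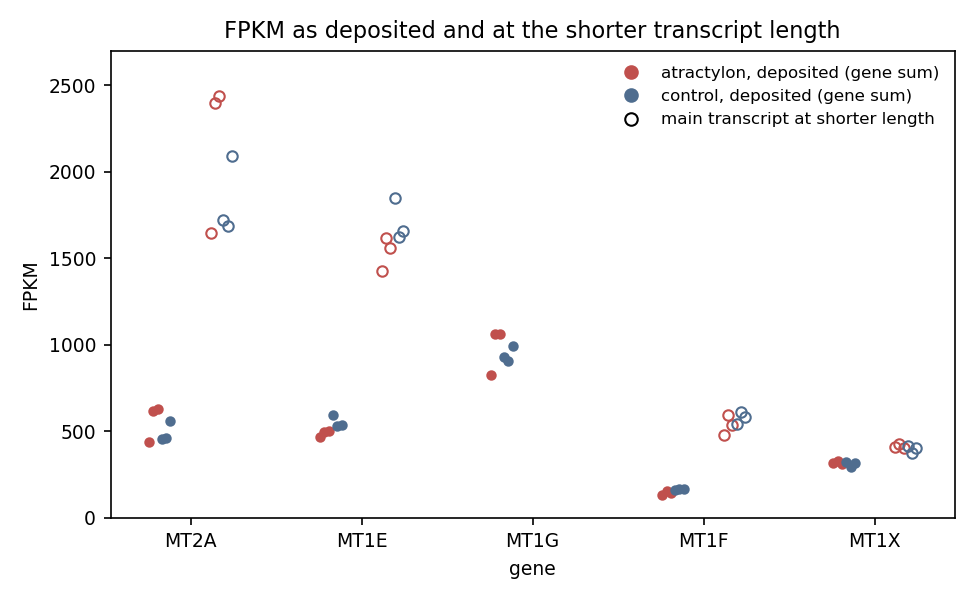
FPKM of the 5 abundant metallothionein genes per library. Filled points are the deposited values summed per gene. Open points are the main transcript at the length implied for transcripts as long as its part from the inner start site, which was not computed for MT1G. MT1G leads at the deposited lengths with a mean of 962, while MT2A at 1997 and MT1E at 1623 lead at the shorter ones.

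Most of each abundant gene came from 1 transcript. MT2A-201 held 99.7% of MT2A counts over the 6 libraries, MT1E-201 98.4%, MT1F-201 96.8% and MT1X-201 94.2%. The share of MT2A-201 was 99.89%, 99.8% and 99.8% with atractylon and 99.64%, 99.55% and 99.5% in controls. These groups did not overlap, though they lay within 1 percentage point, and the share was given no test. The difference rests on few counts, since no other MT2A transcript gave more than 9.05 counts in any library. The groups overlapped for the shares of MT1E-201, MT1F-201 and MT1X-201. How often such shares do not overlap over all genes was not computed. MT1X-204, a transcript with a retained intron, held 4.86%, 4.14% and 2.92% of MT1X counts with atractylon and 4.01%, 7.94% and 4.89% in controls, with overlapping groups. MT1G was the one abundant gene with a sizeable second form. MT1G-201 held 77.9% of its counts, and MT1G-202 held 20.1%, 24.0% and 23.4% with atractylon and 23.4%, 18.8% and 20.2% in controls, so the groups overlapped for this share too.

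The 2 MT1G forms are shown because their coding parts differ by 3 bases. The capitals mark the coding bases 29 to 31 that are in MT1G-201 and absent from MT1G-202 (GENCODE 29, from the start codon).
MT1G-201: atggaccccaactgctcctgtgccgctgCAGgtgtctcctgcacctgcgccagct
MT1G-202: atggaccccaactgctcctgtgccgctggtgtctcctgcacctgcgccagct

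A further 8 metallothionein genes and pseudogenes were looked up. MT1B had 5 counts and MT1JP 8 counts over the 6 libraries together. MT3, the brain metallothionein, MT4, the metallothionein of stratified epithelia, and MT1L, MT1HL1, MT1DP and MT1CP had 0 counts in every library, which allows up to 0.0733 CPM over the 6 libraries pooled, for counting error only.

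MTF1, the zinc sensor and activator, was at 11.8, 8.65 and 7.42 CPM with atractylon and 10.3, 10.4 and 12.9 CPM in controls. Atractylon replicates 2 and 3 were below every control, and replicate 1 lay among the controls. The log2 fold change was -0.27 (SE 0.23, 95% interval -0.78 to 0.25), with an unadjusted p of 0.275 by edgeR, and -0.48 without atractylon replicate 1 (unadjusted p 0.0502, adjusted p 0.467, the lowest over its alternatives). The change was smaller without atractylon replicate 3, at -0.15 (unadjusted p 0.592), and without control replicate 3, at -0.15 (unadjusted p 0.592 by edgeR). Without replicate 1 of both groups it was -0.54, with an unadjusted p of 0.0389 and an adjusted p of 0.533 by edgeR, where 9.1% of all genes had an unadjusted p below 0.05. On the log2(FPKM + 0.5) scale it was -0.59. On that scale 1 short transcript weighed heavily: MTF1-202, of 413 bases, held 6.75% of MTF1 counts but 78.2% of MTF1 FPKM in control replicate 2, and 3.11% of counts but 63.1% of FPKM in atractylon replicate 2.

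SLC30A1, the exporter and an MTF1 target, was at 93.6, 60.2 and 68.5 CPM with atractylon and 77.4, 60.3 and 69.8 CPM in controls. Atractylon replicate 1 was the highest library, where MT2A, MT1G, MT1F, MT1E and MT1M were each at their lowest, and atractylon replicate 2 was the lowest. The log2 fold change was 0.10 (SE 0.17, 95% interval -0.27 to 0.48), with an unadjusted p of 0.560 by edgeR. Its sign rested on atractylon replicate 1: without that library it was -0.10, with an unadjusted p of 0.449 and an adjusted p of 0.777, the lowest over its alternatives. It was 0.22 without atractylon replicate 2, 0.19 without control replicate 1 and 0.0007 without control replicate 2.

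Libraries differed in how their gene levels followed GC content, and the levels of some of the 10 genes went with it. Across 12301 genes, the Spearman correlation of a gene's deviation from its mean with its GC content was -0.596, 0.595 and 0.393 with atractylon (replicates 1 to 3) and -0.421, 0.176 and 0.020 without it, a description with no test. The transcripts of MT2A, at 63.0% GC, were lowest in atractylon replicate 1, the library with the most negative correlation, while those of SLC30A1, at 38.0% GC, were highest there. MT1X, at 51.0% GC, stayed nearly level. MT1G, at a similar 52.8% GC, did not: like MT2A it was lowest in atractylon replicate 1 and highest in atractylon replicates 2 and 3. GC-rich MT1E (59.4% GC) and MT1M (62.5% GC) followed the trend only in part. Like MT2A, both were lowest in atractylon replicate 1. Yet both were highest in control replicate 1, whose correlation was also negative. They were below their mean in atractylon replicate 2, whose correlation was the highest. The part of this trend in any difference between the groups was not tested beyond the fit that removes it. In that fit the log2 fold change of MT2A was 0.12, against 0.21 in the main fit, and that of SLC30A1 was 0.10 in both. MT1E, MT1F and MT1M lay further from 0, at -0.24, -0.23 and -0.35, against -0.18, -0.17 and -0.28 in the main fit. In the fit without the GC trend, 0 of the 10 genes passed an adjusted p of 0.05 by edgeR.

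**Figure D5:**
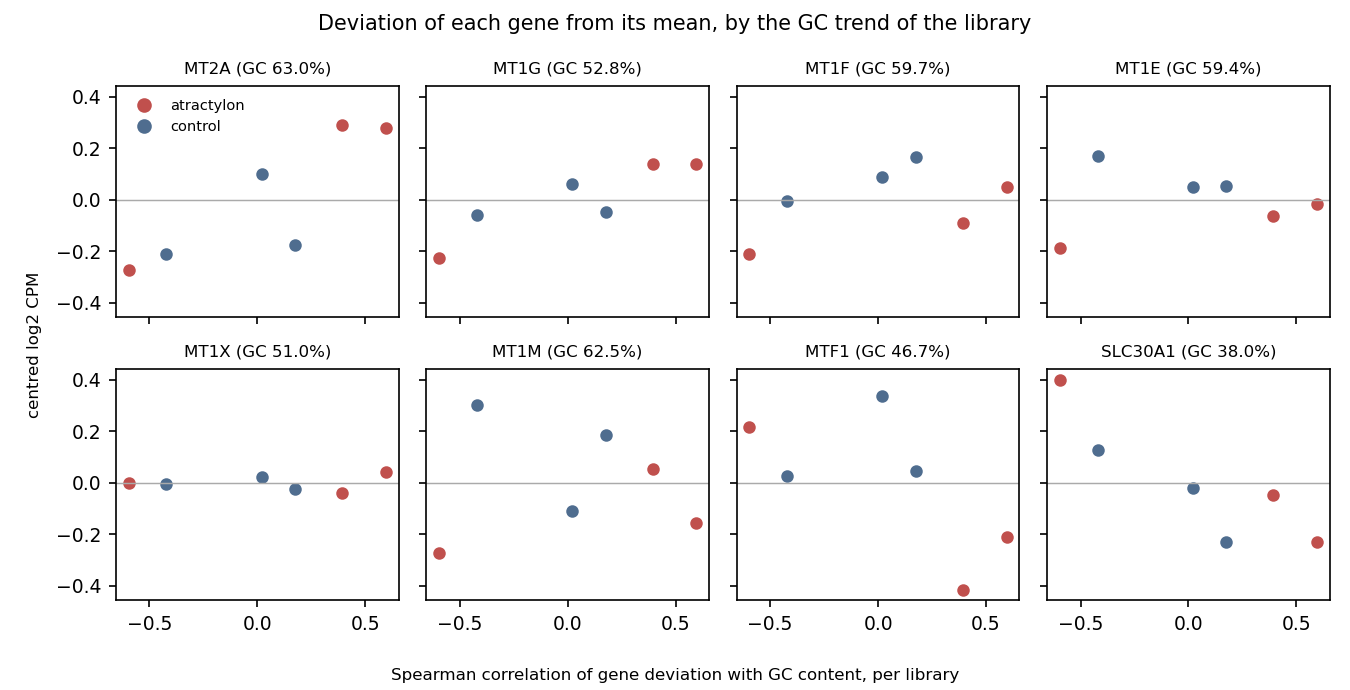
Deviation of each gene from its own mean over the 6 libraries (centred log2 CPM) against the Spearman correlation of gene deviations with GC content in that library, 1 point per library. MT2A, at 63.0% GC, is low in atractylon replicate 1, where SLC30A1, at 38.0% GC, is high, and MT1X, at 51.0% GC, spans 0.08 from its lowest to its highest library.

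The other genes that move zinc and copper were taken as lists of 10 further zinc exporters, 14 importers and 12 copper-handling genes, beside the 8 other metallothioneins. Of these 44 genes, 29 were tested, and 0 differed at an adjusted p below 0.05 by edgeR, DESeq2 or limma. In the main fit 0 had an unadjusted p below 0.05 by edgeR, against 1.59% of all genes. Without replicate 1 of both groups it was 4 of the 29 (SLC30A6, SLC39A4, SLC39A14 and ATP7B), against 9.1% of all genes. Without atractylon replicate 1 it was 2 (SLC30A6 and SLC39A4), against 10.7% of all genes. Fitted changes were positive for 16 and negative for 13, with a median log2 fold change of 0.01, against 0.01 over all genes tested. Of the 29, 0 had groups that did not overlap, against 5.72% of all genes, which is near that background. By list, the exporters had 3 positive and 3 negative changes of 6 tested, the importers 8 and 3 of 11, and the copper genes 4 and 7 of 11.

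On the FPKM scale, 3 zinc importers were among the 5 most abundant of these genes, SLC39A14 with a mean of 237, SLC39A4 with 145 and SLC39A1 with 142 over the 6 libraries. SLC39A14, a plasma membrane importer of zinc and iron in hepatocytes, was at 691 ± 142 CPM with atractylon and 705 ± 89.0 CPM in controls (SD, n = 3 each), a log2 fold change of -0.03. Without replicate 1 of both groups its log2 fold change was -0.26, with an unadjusted p of 0.0379 and an adjusted p of 0.533 by edgeR. SLC39A1, a widely expressed importer, was at 286 ± 29.1 and 285 ± 17.8 CPM. SLC39A4, the importer of dietary zinc in the intestine, was at 176 ± 26.2 and 153 ± 11.6 CPM, a log2 fold change of 0.20 (SE 0.12, unadjusted p 0.130 by edgeR), the smallest p of the 29 genes. It was 0.08 without atractylon replicate 2 and 0.30 without atractylon replicate 1, there with an unadjusted p of 0.0163 by edgeR, where 10.7% of all genes had one below 0.05. SLC39A13, an importer of the early secretory pathway, had a log2 fold change of 0.19 (unadjusted p 0.190 by edgeR), or 0.07 without atractylon replicate 2. SLC30A7, which loads zinc into the Golgi, was at 0.20 (unadjusted p 0.324 by edgeR), or -0.0084 without atractylon replicate 1 and 0.36 without atractylon replicate 2.

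The tested copper genes ranged in log2 fold change from -0.35 to 0.22. SOD1, the copper and zinc superoxide dismutase, was at 175 ± 11.3 CPM with atractylon and 172 ± 22.8 CPM in controls (SD, n = 3 each), and ATOX1, which carries copper to the Golgi pumps, at 56.0 ± 6.57 and 53.9 ± 5.27 CPM. COX17, a mitochondrial copper chaperone, had a log2 fold change of -0.35 (unadjusted p 0.173 by edgeR) and SCO2, a copper protein needed for cytochrome c oxidase, 0.22 (unadjusted p 0.165 by edgeR). COX17 was at -0.16 without control replicate 1, and SCO2 at 0.12 without atractylon replicate 2. The symbol SCO2 belongs to 2 gene identifiers of the annotation, and the more abundant was used.

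The genes most like the summed metallothionein level over the 6 libraries were WIZ, RBM10, DCTN1, GPRC5C and C11orf24, out of 8406 genes with a mean of at least 10 CPM. Likeness was the root mean square difference of centred log2 CPM, which was 0.0163 for WIZ and 0.0284 for C11orf24. WIZ was at 58.1, 72.1 and 71.8 CPM with atractylon and 64.6, 64.8 and 71.4 CPM in controls. Like the metallothionein sum, it was lowest in atractylon replicate 1 and highest in atractylon replicates 2 and 3. The 6 libraries share their depth and GC differences, so the likeness is a description only.

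The libraries held 5859575 to 8832092 expected counts. All 10 hepatocyte markers on the list were tested, and their summed level was 18600.0 to 24580.0 CPM with atractylon and 19650.0 to 21230.0 CPM in controls. Of 15 markers of blood, endothelial, stromal and bile duct cells, 10 were tested. The 15 together summed to 588 to 684 CPM with atractylon and 627 to 669.9 CPM in controls. Most of that sum was KRT19, at a mean of 446 CPM over the 6 libraries. EPCAM was at 66.3, ACTA2 at 59.2 and CD68 at 31.8 CPM. COL1A2 was at 0 in all libraries and PTPRC had 1 count in all. Hepatocyte transcripts were thus present, as the label of a liver cancer line states, beside some transcripts from the other marker list.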

How the data were processed

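RNA from 6 HepG2 libraries was taken with the SMART-Seq v4 kit for ultra low input, per the labels' protocols. The authors deposited 2 values per library for each of 180253 transcripts, an expected count (an estimated read number that need not be whole) and an FPKM value, with a transcript length, per the file headers. The submitters' processing notes name HISAT2 2.0.1, cutadapt 1.9.1, DESeq2 1.6.3, bcl2fastq 2.17.1.14 and the build hg19, with no roles. The sources used here do not state the counting program or whether strand was used. Amplification of low input can shift levels by GC content and length, and FPKM depends on the transcript length assumed.

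Transcripts were matched by identifier to GENCODE 29 (153245 matched; the 27008 others held 8.70% to 9.07% of counts and were left out). Counts were summed per gene and rounded. Genes reaching an FPKM of 0.5 in 3 or more of 6 libraries were tested with edgeR 4.0.16 (TMM, quasi-likelihood, 2-sided, Benjamini-Hochberg, threshold 0.05), after the values proved to be counts. CPM uses effective library sizes. DESeq2 1.42.0, limma 3.58.1 on log2(FPKM + 0.5) and other fits were alternatives; code was tested on simulated data. Standard errors come from the quasi-likelihood statistic. Limma's fold changes on the log2(FPKM + 0.5) scale understate changes of low genes. Replicates were not repeat copies of 1 library (chi-square per degree of freedom 3.41 to 19.1).

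The 10 genes and all lists were chosen with earlier results of these data known. The text names all 10 genes, and of the zinc and copper lists the 5 with the smallest p and the 5 with the highest FPKM, and the 5 genes most like the metallothionein sum. Promoters were taken from RefSeq (GRCh38.p14); no coordinates of the files' build are given.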

Additional observations from a re-analysis of the deposited data

How the results depend on the processing

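Under 20 alternatives, the count of the 10 genes called at an adjusted p below 0.05 was 0 in each, as was the count of the zinc and copper genes. Of 534 alternative values, 485 kept their direction and side of the threshold or moved by less than the spread, 35 changed sign and 14 counts moved. Genes called over the whole table numbered 0 as reported; 1 was called higher and 1 lower without replicate 1 of both groups, and 0 to 1 lower as single libraries were left out. The count of the 10 genes whose groups did not overlap was 2 by limma on log2 FPKM with pseudocounts of 0.5, 0.1 or 1 (7.3% of all genes), 2 with the GC trend removed and 2 with the replicate block and the GC trend removed (7.74% of all genes), 3 with GC and length trends removed (8.71% of all genes), 5 without replicate 1 of both groups (42.5% of all genes), and 1 to 4 as single libraries were left out (10.4% to 31.9% of all genes). With a replicate block, 0 of the 10 genes were called; same-numbered libraries deviated together with correlations of 0.132, 0.176 and 0.011, so the numbers were not taken to pair them, and MT1A moved from 0.01 to -0.0096. Log2 changes that changed sign without replicate 1 of both groups were MT1A (-0.25), MT1H (0.13) and SLC30A1 (-0.018). With unmatched transcripts kept, MT1X was at -0.0016. SLC39A1 was at -0.022 by limma at each pseudocount (-0.0222, -0.0222 and -0.0221), -0.035 with GC removed, -0.034 with the block and GC removed and -0.032 with GC and length removed; SLC39A14 was at 0.031 by limma (0.0314, 0.0315 and 0.0314) and 0.0036 with GC removed. Ranges as single libraries, or replicate 1 of both groups together, were left out were -0.25 to 0.23 for MT1A, -0.031 to 0.15 for MT1G, -1.1004 to 0.42 for MT1H, -0.028 to 0.016 for MT1X, -0.10 to 0.22 for SLC30A1, -0.020 to 0.15 for ATOX1, -0.0084 to 0.36 for SLC30A7, -0.084 to 0.086 for SLC39A1, -0.26 to 0.080 for SLC39A14 and -0.044 to 0.19 for SOD1. MT1H was not tested at an FPKM minimum of 1 or under filterByExpr. The fits without replicate 1 of both groups and with filterByExpr were chosen after seeing the data. The causes of these changes were not tested. Depth limits MT1A, MT1H and MT1M.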
